A study of Mus musculus with 2 samples.

Results

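The genes described here encode 9 surface and homing proteins of progenitor B cells, namely Cd24a, Ptprc, Cd44, Cd93, Spn, Cxcr4, Itga4, Itgb1 and Itgb7. They were chosen by name and looked up among all genes that the deposited Sox4 peak list gives for each peak. Of the 9 genes, 8 were listed, with 13 of the 8730 peaks between them, and Spn was listed for none. The series holds 1 Sox4 bioChIP library and 1 input library, both from C57BL/6 mouse progenitor B cells derived from embryonic fetal liver. Both come from cells given BirA (a biotin ligase), p190 Bcr-Abl (the oncogene that immortalized them), SE-Cre and BAP-Sox4 (Sox4 fused to a tag) by retrovirus, one after the other, with a sort after each. The bioChIP library holds chromatin fragments pulled down on streptavidin beads. The input library was not analysed here, and there is no replicate, so no test between groups was made. All values below come from the 1 bioChIP library. Whether the cells carried these surface proteins was not measured here, since a peak list holds no expression.

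These proteins mark B-cell stages and hold progenitors in their niche. CD24, the B220 form of CD45 (Ptprc), CD43 (Spn) and CD93 are stains by which progenitor B cells are staged, and CD44 binds the matrix polymer hyaluronan. CXCR4 is the receptor of the stromal chemokine CXCL12. The integrin alpha 4 chain pairs with beta 1 to bind VCAM1 on stroma and with beta 7 to bind MAdCAM-1 on gut vessels. Sox4 is a DNA-binding protein of the HMG-box class that B-cell progenitors require.

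The promoter sequences of 5 members are shown because the peaks treat their starts differently. They are the 250 bases before the start in the RefSeq promoter table (build GRCm38.p6), which had a window for 7 of the 9 genes and none for Cd24a and Cd93. The peak list itself is on mm9, and no position was carried from one build to the other. Capitals mark every match, on either strand, to the SOX-type cores ACAAAG and ACAATG, the ETS core CCGGAAG and the SP/KLF box GGGCGG. The first pair of sequences belongs to starts that lay under a peak. The next is that of Cxcr4, whose peak began past the start. The last pair is from genes with no peak near the start, and of the starts of Ptprc the outer one is given.
Itgb1 (chr8:128685404-128685653, plus strand): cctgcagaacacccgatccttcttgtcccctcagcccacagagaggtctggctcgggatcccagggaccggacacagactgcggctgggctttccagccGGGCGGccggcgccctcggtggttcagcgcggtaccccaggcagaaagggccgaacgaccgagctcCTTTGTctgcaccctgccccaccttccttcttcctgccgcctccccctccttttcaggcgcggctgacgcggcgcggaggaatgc
Itga4 (chr2:79255176-79255425, plus strand): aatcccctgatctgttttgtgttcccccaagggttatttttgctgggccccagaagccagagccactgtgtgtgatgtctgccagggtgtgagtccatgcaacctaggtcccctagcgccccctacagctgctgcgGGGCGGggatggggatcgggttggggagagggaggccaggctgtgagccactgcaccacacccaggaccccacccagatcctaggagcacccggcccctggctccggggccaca
Cxcr4 (chr1:128592300-128592549, minus strand): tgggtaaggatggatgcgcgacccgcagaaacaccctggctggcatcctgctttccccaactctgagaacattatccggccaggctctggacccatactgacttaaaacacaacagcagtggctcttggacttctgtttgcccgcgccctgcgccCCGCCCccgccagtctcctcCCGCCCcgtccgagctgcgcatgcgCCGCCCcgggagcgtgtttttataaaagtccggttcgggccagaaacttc
Cd44 (chr2:102901666-102901915, minus strand): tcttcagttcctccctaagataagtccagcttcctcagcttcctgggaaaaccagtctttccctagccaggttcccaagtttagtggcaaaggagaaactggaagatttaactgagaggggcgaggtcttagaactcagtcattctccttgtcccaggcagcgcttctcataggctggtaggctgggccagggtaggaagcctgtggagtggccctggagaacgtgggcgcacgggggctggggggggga
Ptprc (chr1:138175306-138175555, minus strand): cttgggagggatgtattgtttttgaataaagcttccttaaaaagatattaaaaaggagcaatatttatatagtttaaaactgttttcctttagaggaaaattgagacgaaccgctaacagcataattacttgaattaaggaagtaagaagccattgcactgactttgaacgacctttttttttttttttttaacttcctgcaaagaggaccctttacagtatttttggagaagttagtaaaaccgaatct

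Peaks lay at or just past the start of Cd24a, Cd93, Cxcr4, Itga4 and Itgb1, and away from the starts of Ptprc, Cd44 and Itgb7. A promoter peak, meaning a peak interval within 5 kb of a transcription start (TSS), was thus found at 5 of the 9 members (55.6%, exact 95% interval 21.2 to 86.3%), where 32.8% of all 20953 protein-coding genes had one. A gene-body peak, which lies inside the gene or at most 10 kb from either end, was found at 7 of 9 members (77.8%, 40 to 97.2%), beside 40.8% of all genes. Being listed at all, which takes a peak within 25 kb, held for 8 of 9 members (88.9%, 51.8 to 99.7%), beside 48.9% of all genes. With 9 genes the intervals are wide, and those of the promoter and gene-body counts include the share over all genes. The members were picked by name with earlier results of these data known, so none of the intervals is a test.

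**Figure D1:**
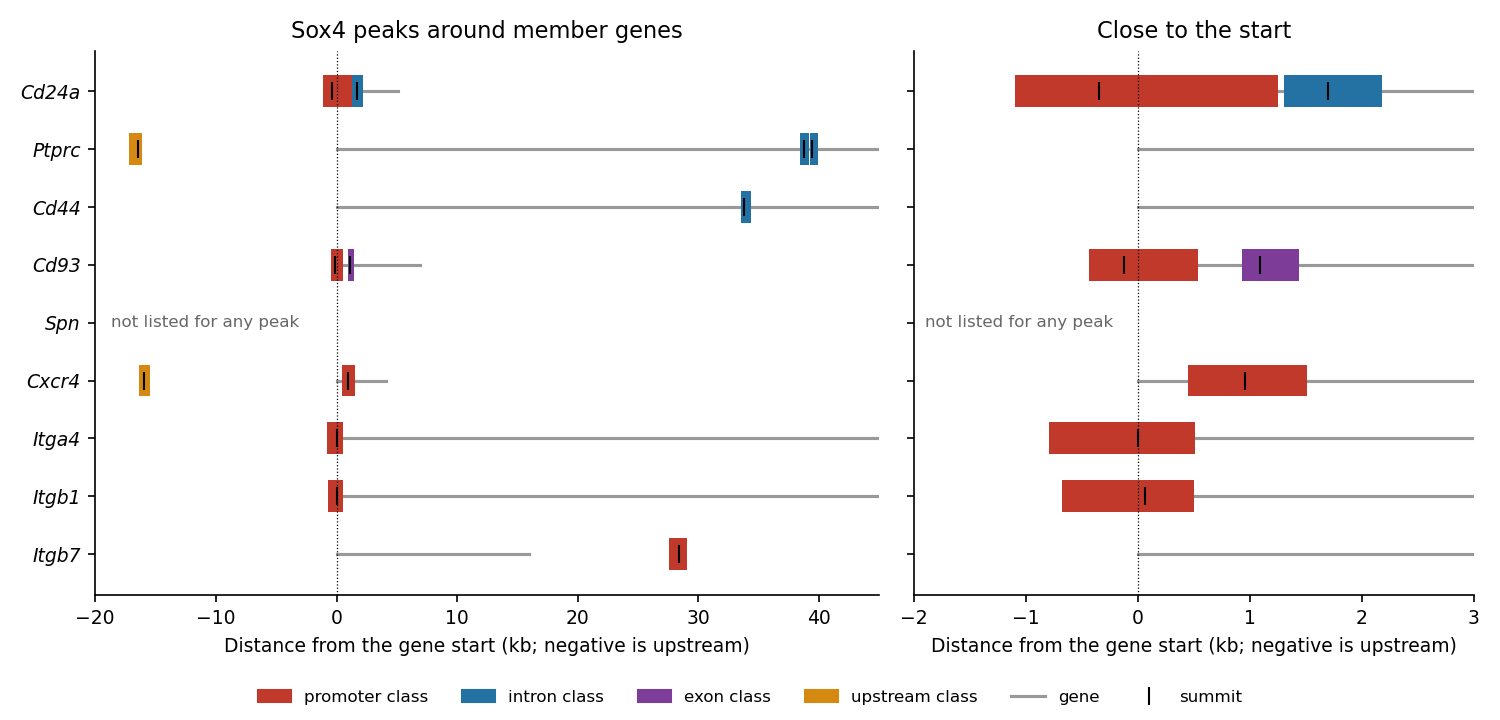
Intervals of the 13 member peaks by distance in kb from the outermost gene start, with the gene as a grey line, the summit as a black tick and the deposited position class as the colour. The left panel spans the surroundings and cuts the long genes off at its edge, and the right panel enlarges the start, where Cd24a, Cd93, Itga4 and Itgb1 are covered and Cxcr4 is marked from 450 bp inside.

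Cd24a, which encodes the small lipid-anchored glycoprotein CD24, carried the strongest signal of the 9 genes. The interval over its start (mm9, chr10:43297875-43300223; NM_009846) ran from 1099 bp upstream to 1249 bp downstream and held 276 tags (reads counted in the peak; exact Poisson 95% interval 244 to 311). Its fold over the background that the peak caller expected was 6.67. Its score, which is minus 10 log10 of the peak p-value, was 569.07 and ranked 339 of 8730. By width (2348 bp) it ranked 85 and by tags 118, but by fold only 1075. A further Cd24a peak in the intron class began 1304 bp inside the gene (76 tags, 59.9 to 95.1, fold 5.20, score 108.66). Only 55 bp separated the pair, and the summits lay 347 bp upstream of the start and 1697 bp inside the gene. The noncoding gene F830002L21Rik was listed for both peaks as well, at over 12 kb, and both were closest to Cd24a. The promoter peaks most like the stronger one in tags, fold and width (Euclidean distance on log2 values, within this 1 library) were those closest to Erbb2ip (distance 0.100), Slc38a2 (0.112) and Cecr2 (0.118), with 269, 263 and 257 tags.

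Ptprc, which encodes the phosphatase CD45, had 3 peaks and none at its start. The strongest lay 16107 bp upstream (mm9, chr1:140087988-140089066) with 89 tags (71.5 to 110) and was 4.44-fold over background, and its score of 180.47 was above that of 76.2% of all peaks. The others lay in the intron class at 38398 bp from the outer start (58 tags, 44.0 to 75, fold 5.38, score 116.41) and at 39243 bp (46 tags, 33.7 to 61.4, fold 4.30, score 80.96), with 117 bp between them. The intron peak at 38398 bp had the highest fold of the 3, above 74.4% of all peaks. For all 3, Ptprc was the only gene listed. Of all protein-coding genes, 8.82% were listed for 3 or more peaks, and 2.30% had a peak inside the gene without a promoter peak, as did Ptprc and Cd44.

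Cd44, the hyaluronan receptor gene, had a single weak peak deep in the gene. It lay in the intron class 33485 bp from the start shared by all 6 of its listed transcripts (mm9, chr2:102707455-102708337) and held 54 tags (40.6 to 70.5), a 4.07-fold enrichment. Its score was 77.07, and 30.3% of all peaks scored lower, and the next peak on the chromosome was 204945 bp away. The distance of this peak to the gene's end was 56156 bp.

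Cd93, encoding the C-type lectin known to B-cell workers as AA4.1, had a peak over its start and a second just inside. The first (mm9, chr2:148268735-148269703; NM_010740) held 68 tags (52.8 to 86.2), with a fold of 4.38, a score of 87.6 and its summit 119 bp upstream. The second, in the exon class, began 933 bp inside the gene and held 35 tags (24.4 to 48.7), was 3.60-fold over background and scored 52.05. It was the weakest of the 13 in each of these values and, at 505 bp, the narrowest, and its score lay close to the lowest in the list, 50.03. The gap between the pair was 397 bp. Both Cd93 peaks scored below the median of all peaks, 104.9.

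Spn, the gene of the sialomucin CD43, was listed for no peak, as were 51.1% of protein-coding genes. Whether the annotation behind the list held Spn could not be read from the list. Its protein-coding neighbours were listed. Qprt had a peak 2602 bp past its end (76 tags, fold 6.32) and another 15545 bp past it (94 tags, fold 4.06), both closest to AI467606. Cd2bp2 had one over its start (77 tags, fold 3.33) and one 12024 bp upstream, closest to Tbc1d10b (133 tags, fold 3.30).

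Cxcr4, the chemokine receptor gene, was marked inside the gene and far upstream. The stronger peak began 450 bp past the start (mm9, chr1:130487364-130488426; NM_009911) and had its summit 960 bp inside this short gene. With 93 tags (75.1 to 114) it was 5.18-fold over background, and its score of 197.17 was above that of 79.1% of all peaks. The deposited class was promoter. The bases printed above for Cxcr4 lie before the start and so outside this interval. The second peak lay 15492 bp upstream with 73 tags (57.2 to 91.8), 4.10-fold over background, and scored 113.87. Cxcr4 was the only gene listed for either. Upstream peaks at a like distance, 15492 bp and 16107 bp, were thus found at Cxcr4 and Ptprc.

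Itga4 and Itgb1, the chains of the VCAM1 receptor, had near-equal peaks squarely over their starts. The Itga4 peak (mm9, chr2:79094793-79096091; NM_010576) had 105 tags (85.9 to 127), a fold of 4.76 and scored 195.53. The Itgb1 peak (mm9, chr8:131208882-131210054; NM_010578) had 106 tags (86.8 to 128), a fold of 4.95 and scored 205.98. Their tag intervals overlap almost wholly, and their widths were 1298 and 1172 bp. With the start placed by the gene's end in the list and its RefSeq length, which need not be that of the deposited annotation, the summit lay 0 bp from the start of Itga4 and 65 bp past that of Itgb1. Each was the only peak of its gene and had no other gene listed. The nearest other peak was 121710 bp from that of Itga4 and 1698129 bp from that of Itgb1.

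Itgb7, the other partner of the alpha 4 chain, had no peak of its own. It was listed for a peak 11578 bp past its end and 27518 bp from its start (mm9, chr15:102033346-102034848), just beyond the 10 kb limit for a gene-body peak. With 139 tags (117 to 164) it was 3.85-fold over background and scored 177.24. Its closest gene was Zfp740, from whose start it lay 3850 bp upstream, and Csad was listed too. It was the 1 member peak of 13 that was closer to another gene.

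The 13 peaks resembled the list as a whole in strength. Their fold ranged from 3.60 to 6.67 with a median of 4.44, beside 4.43 over all peaks, and 7 of 13 exceeded the latter. None reached a fold of 10, which 4.39% of all peaks did. Their median tag number was 76, beside 71 over all peaks, and 8 of 13 exceeded the latter. Their median score was 116.4, beside 104.9, which 9 of 13 exceeded. The 4 peaks over member starts ran from 68 to 276 tags, whereas promoter-class peaks of all genes had a median of 77 and quartiles of 58 and 109. The 4 member peaks in introns held 46 to 76 tags, where the intron class had a median of 59. The sources used here do not give the depth of the library, so these numbers rank peaks within this list only.

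**Figure D2:**
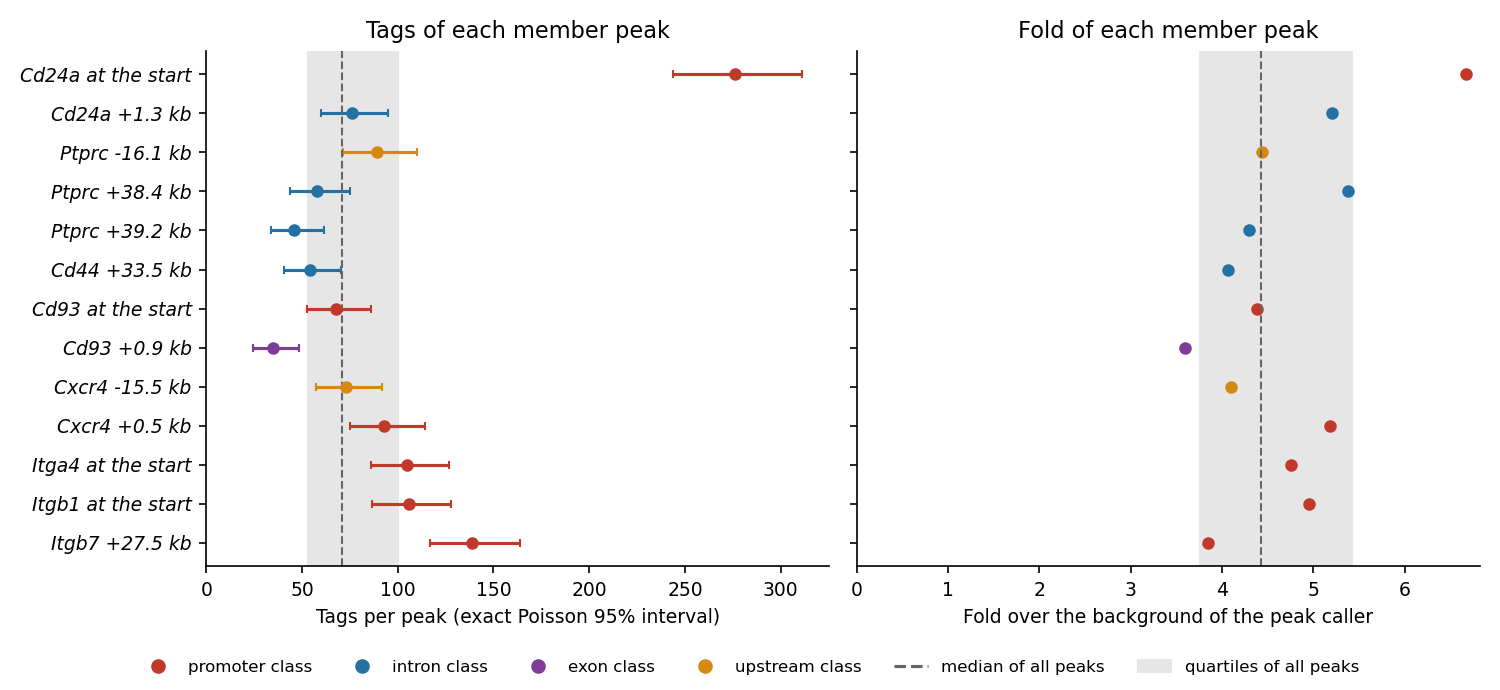
Tags per peak with exact Poisson 95% intervals (left) and fold over background (right) for the 13 member peaks, labelled by gene and distance to the start and coloured by class. The peak over the Cd24a start, with 276 tags, stands outside the quartile band of all peaks (53 to 100 tags) by the widest margin, and the exon peak of Cd93, with 35, lies below it.

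Several member peaks lay in close pairs. Another peak lay within 1 kb of 6 of the 13 (the pairs at Cd24a, Ptprc and Cd93), whereas 7.81% of all peaks had such a neighbour. Whether the caller split single broad signals there was not tested. A single gene symbol was listed for 10 of the 13 member peaks, so few of them were shared with a neighbouring gene. It was listed for 33.7% of all peaks, but these include peaks with no gene listed, which a member peak cannot be. These shares describe genes picked by name and carry no test.

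**Figure D3:**
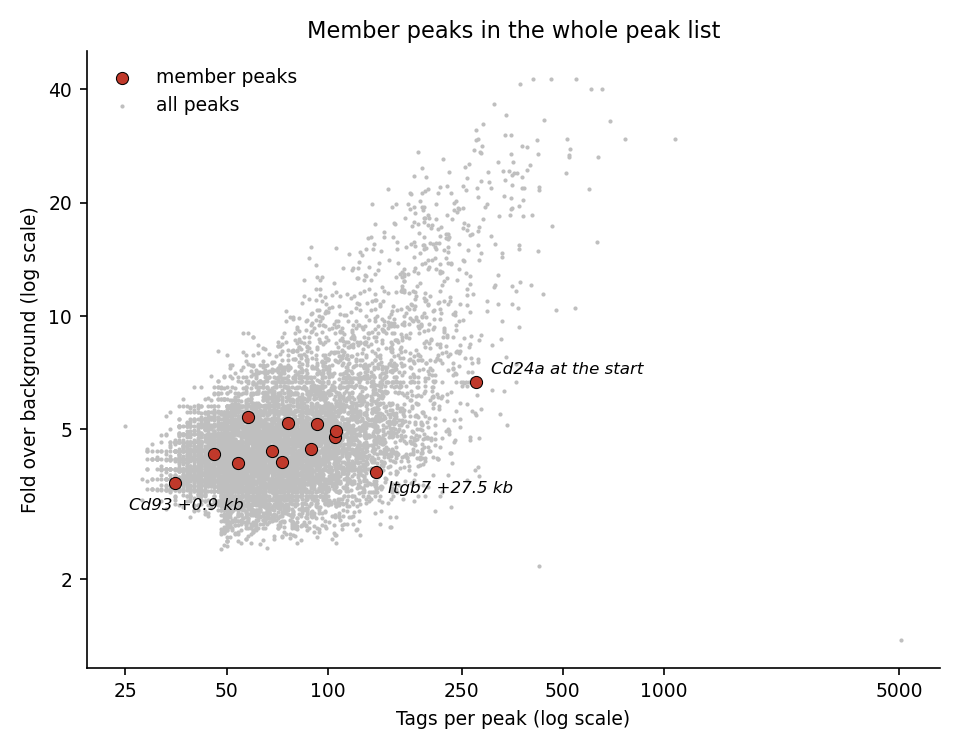
Tags against fold, both on log scales, for the 13 member peaks and all 8730 peaks. Member peaks lie within the main cloud between a fold of 3.60 and 6.67, none near the highest fold of 42.7, and the peak at the Cd24a start lies at its high-tag side.

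The sequences at the starts differed in base composition between members. Over the 300 bases of each RefSeq window (250 before the start, 50 after), Itgb1 had 67.3% GC and 27 CpG dinucleotides, Itga4 64.3% and 10, and Cxcr4 59.3% and 20. Cd44 had 58.0% and 6, Spn 57.3% and 3, Itgb7 56.3% and 5, and the outer Ptprc window 33.7% and 4. The members with a promoter peak thus had 10 or more CpG and those without had 6 or fewer, among the 7 genes with a window. Over all genes with a window (the first, where a gene had several), those with a promoter peak had a median of 24 CpG (5599 genes) and those without 7 (11184 genes). Of genes with 0 to 4 CpG, 5.29% had a promoter peak, with 5 to 14 it was 21.2%, with 15 to 25 it was 48.1% and with 26 to 65 it was 62.6%. The part of base composition in the members' peaks was not tested, and the CpG count was chosen after the values were seen.

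Matches to the SOX-type cores were few. Among the windows of the 7 genes only that of Itgb1 held one, as ACAAAG read on the other strand, beginning 85 bases before the start. One or the other core, on either strand, was present in 25% of 20418 promoter windows of protein-coding genes. The ETS core was in none of the member windows and in 11.9% of all. The SP/KLF box was in those of Cxcr4 (3 matches), Itga4, Itgb1 and Cd44 (1 each, that of Cd44 past the start and so not in the bases printed), and in 47.7% of all. The E-box CANNTG, common at 68.7% and not capitalised above, was found in Ptprc, Spn, Itga4 and Itgb7. These are matches of letters in short windows, which reach neither the peak inside Cxcr4 nor the distant peaks of Ptprc and Cd44.

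The integrin and chemokine receptor families to which 4 of the members belong were mostly without promoter peaks. So were most protein-coding genes, of which 32.8% had one. Of 26 integrin genes 4 had a promoter peak (15.4%, 4.36 to 34.9%), and 2 of the 23 that are not members. Besides Itgb1 and Itga4 these were Itgav, the alpha chain of vitronectin receptors (80 tags, 63.4 to 99.6, fold 5.32), and Itga6, the alpha chain of laminin receptors (79 tags, 62.5 to 98.5, fold 3.51). A further 6, Itga2b, Itga8, Itga9, Itgae, Itgal and Itgb4, had a gene-body peak without one at the promoter, as did 7.95% of all protein-coding genes. With or without a promoter peak, 10 of the 26 had a gene-body peak (38.5%), beside 40.8% of all genes. Of 22 chemokine receptor genes 2 had a promoter peak (9.09%, 1.12 to 29.2%), Cxcr4 and Ccr10, and the peak of Ccr10 began 1078 bp inside that gene (60 tags, 45.8 to 77.2, fold 5.13).

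Genes of the ligands and counter-receptors had a promoter peak in 4 of 16 cases (25%, 7.27 to 52.4%). Selplg, the gene of the selectin ligand PSGL-1, had 2, of which the higher-scoring lay 1561 bp upstream (130 tags, 109 to 154, fold 8.52) and the other covered the start (86 tags, 68.8 to 106, fold 5.75). The peak over the start of Fn1, the fibronectin gene, had 110 tags (90.4 to 133) and a fold of 9.06 and was closest to Apol7d. Madcam1, whose product binds alpha 4 beta 7, was counted for a peak 4471 bp from its start that was closest to Tpgs1 (102 tags, fold 3.16). Icam1 had 83 tags at a fold of 2.76. Cxcl12 and Vcam1, named after their values were seen as the ligands of Cxcr4 and of alpha 4 beta 1, were listed for no peak.

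Genes on the integrin activation list had a promoter peak in 13 of 22 cases (59.1%, 36.4 to 79.3%). That list holds other regulators and adhesion proteins besides those that switch integrins on. The highest scores were at Apbb1ip, which encodes the Rap1 effector RIAM (162 tags, 138 to 189, fold 6.25), and at Rasgrp2, which encodes an exchange factor for Rap1 (117 tags, 96.8 to 140, fold 7.16). Cyth1, the cytohesin 1 gene (186 tags, fold 5.39), and Ptk2, the gene of focal adhesion kinase (107 tags, fold 5.04), came next. Rasgrp2 and Cyth1 each had 3 promoter peaks, and the values are those of the highest-scoring one. Genes that act downstream of Cxcr4 had one in 12 of 17 cases (70.6%, 44.0 to 89.7%). Cdc42, a small GTPase gene, led with 125 tags (104 to 149) at a fold of 6.78. Arrb1, encoding a beta-arrestin, had 107 tags at a fold of 6.20, Rac1 116 tags at 4.96 and Vav1, encoding a Rac exchange factor, 82 tags at 4.06. Of the 5 without a promoter peak, Grk2 and Rgs16 had a gene-body peak and Grk3, Rgs1 and Rgs2 were listed for none. The intervals of these 2 lists lie above the 32.8% of all genes, those of the ligands and the integrins include it, and that of the chemokine receptors lies below it. The lists were chosen with earlier results of these data known, so these intervals are no test against all genes. The difference between lists was not tested either.

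Other surface genes of progenitor B cells had a promoter peak in 6 of 21 cases (28.6%, 11.3 to 52.2%), beside 32.8% of all protein-coding genes. The highest score was at Sdc1, the gene of the heparan sulfate proteoglycan syndecan 1 (231 tags, 202 to 263, fold 11.21), whose fold exceeded that of every member peak. Cd47 had 163 tags at a fold of 6.27. Cd79a had 2, of which the higher-scoring lay 4895 bp from its start and was closest to Arhgef1 (134 tags, fold 8.41), and the other covered the Cd79a start (81 tags, 64.3 to 101, fold 5.78). No gene of 18 for surface proteins of other lineages had a promoter peak (0%, upper limit 18.5%). The difference between these 2 lists was not tested. Of the 18 genes of other lineages, Cd14 and Csf3r had a gene-body peak (11.1%), beside 40.8% of all genes.

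**Figure D4:**
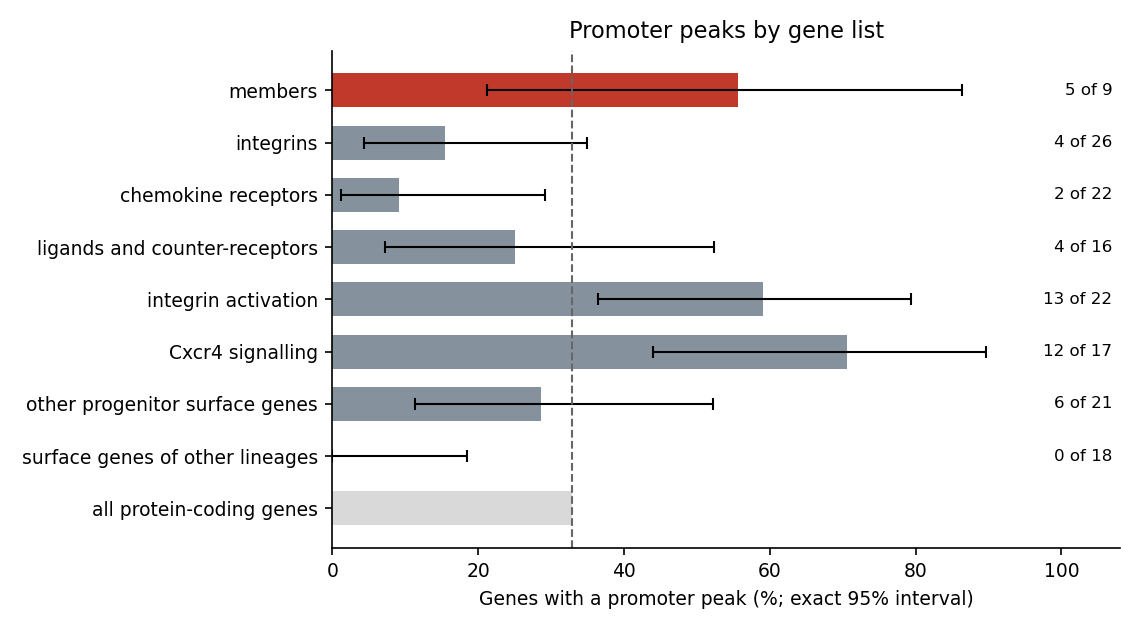
Share of genes with a promoter peak (bars, %) with exact Clopper-Pearson 95% intervals for the 9 members, the 7 wider lists and, at the bottom and as the dashed line, all 20953 protein-coding genes at 32.8%. The members stand at 55.6%, the Cxcr4 signalling and integrin activation lists at 70.6% and 59.1%, and the lists of integrins (which holds 3 members) and chemokine receptors (which holds Cxcr4) at 15.4% and 9.09%.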

How the data were processed

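Sox4 was pulled down from chromatin of 1 cell preparation by its biotinylated tag and sequenced. Bowtie 0.12.8, MACS 1.4.2 and the mm9 build are named in the submitters' processing notes, without parameters. The sources used here do not say whether peaks were called against the input. Per the file headers, the deposited list gives a tag count per peak (not normalized), a fold (a linear ratio over the caller's background), a p-value column read as a score of minus 10 log10 p, since its lowest value is 50.03, and distances in bp to RefSeq starts and ends. A distance is 0 where the interval covers the site. Positions are printed as deposited, and whether they count from 0 or 1 was not stated.

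Genes were matched to the RefSeq table (GRCm38.p6) by accession for 14992 of 15228 transcripts, by symbol for 192 and by an older symbol for 32, while 12 did not match. Shares over all genes are over 20953 protein-coding genes, those of chromosomes 1 to 19 and X that have an NM transcript. Gene starts were worked out from the listed distances, and for Itga4 and Itgb1 from the gene's end and its RefSeq length. Where both ways could be compared, the gene length differed by at most 1 bp for Cd24a, Cd93 and Cxcr4, by 6 bp for Cd44, by 452 bp for Ptprc and by 1472 bp for Itgb7. For each list up to 4 genes with the highest score among promoter peaks are named, along with members without a peak where 5 or fewer lack one. One gene that this rule names is not reported here. The members and lists were chosen with earlier results of these data known. Counts have exact Clopper-Pearson 95% intervals and tags exact Poisson ones. These cover counting error only, and duplicates from PCR are not removed by them. Only the distance rules for promoter and gene-body peaks were run on simulated lists, which had 1 transcript per peak and ready-made distances. Peaks with several genes, matching by symbol and the worked-out gene starts were not covered by them. Python 3.11.15, pandas 2.3.3, SciPy 1.17.1 and matplotlib 3.10.9 were used.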

Additional observations from a re-analysis of the deposited data

How the results depend on the processing

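With only peaks of fold 10 or more, 0 of the 9 members had a promoter peak and 0 a gene-body peak. Of all genes, 1.48% had such a promoter peak and 2.18% such a gene-body peak. The promoter count ran from 4 to 6 under the other settings, given here with the share of all genes called in brackets. It was 5 with a 1 kb window (30.2%), with peaks credited to the closest gene alone (27.7%) and with the first listed transcript (32.4%). A 20 kb window gave 6 (41.9%), which adds Ptprc. Peaks scoring at or above the median gave 4 (18.9%), which drops Cd93. The gene-body count was 7 with no flank (32.7%) and with closest genes only (30.0%). It was 8 with a 25 kb flank (48.9%), which adds Itgb7, and 5 for those higher-scoring peaks (24.1%), without Cd44 and Cd93. The wider lists were recounted only with a 1 kb window, with closest genes only and for the higher-scoring peaks. The bracketed promoter shares of all genes hold for these settings too. Among them, chemokine receptors kept 1 promoter peak, that of Cxcr4, with a 1 kb window and among the higher-scoring peaks. Ligands and counter-receptors had 2 with closest genes only, and Cxcr4 signalling 7 among the higher-scoring peaks. Under these 3 settings the other list counts stayed within 1.5 times. No paired analysis was possible because the series has 1 library per group. A control pull-down from cells lacking BAP-Sox4 was not analysed here.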
